A study of Mus musculus with 15 samples.

Results

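Matrix metalloproteinases (MMPs) and their tissue inhibitors (TIMPs) were followed in mouse bone marrow-derived macrophages (BMDMs) after stimulation with isoforms of the nuclear protein HMGB1 or with bacterial lipopolysaccharide (LPS). The 9 genes were *Mmp8*, *Mmp9*, *Mmp12*, *Mmp13*, *Mmp14*, *Mmp19*, *Timp1*, *Timp2* and *Timp3*, of 51763 genes in the count table, and each was found there by its Ensembl identifier. They were chosen by their names and with their normalized counts in the 5 conditions already seen. *Mmp9* was selected on its highest value lying in disulfide HMGB1, so its levels are given as a description with no test, and the other 8 genes were tested. All 9 passed the filter on low counts.

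All cells were BMDMs of wild-type female C57BL/6NTac mice of 8 to 10 weeks, matured with macrophage colony-stimulating factor. Macrophages of 5 mice were pooled before seeding and stimulated for 24 h, and each of 5 conditions has 3 libraries. Cells of the control received PBS. Both HMGB1 isoforms were given at 5 µg/mL, the fully reduced form as frHMGB1 and the disulfide form as dsHMGB1. LPS-EK (LPS) was given at 1 µg/mL, and LPS/IFNγ, used to obtain an M1 phenotype, combined LPS with 20 ng/mL IFN-γ. For LPS/IFNγ the sample labels give an LPS concentration of 1 µg/mL in 1 field and 100 ng/mL in another, so LPS/IFNγ and LPS may differ in LPS as well as in IFN-γ. The paper's methods give 100 ng/mL for LPS/IFNγ, below the 1 µg/mL of LPS alone. The isoforms came from different laboratories, and frHMGB1 was made in buffers with the reducing agent DTT and dsHMGB1 without it, so isoform, preparation and buffer cannot be told apart. Because the 3 libraries of a condition share 1 pool of mice, errors and p-values cover the spread between technical replicates and not between animals.

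MMPs are zinc endopeptidases that cut collagens, elastin and other matrix proteins, and also release or inactivate cytokines and chemokines at the cell surface. They are made as inactive proenzymes, held so by a cysteine of the propeptide that binds the catalytic zinc, and are activated when the propeptide is cut off. TIMPs bind the active site and block it. In macrophages these enzymes open paths through tissue and thin the fibrous caps of atherosclerotic plaques, and many of their genes respond to Toll-like receptors such as TLR4, which senses LPS and for which dsHMGB1 is a known ligand.

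Total counts ranged from 40934540 to 80925478 per library. A normalized count is a count divided by the DESeq2 size factor of its library. A fold change is unshrunken DESeq2 with its standard error (SE), and a gene is called, or said to rise or fall, where edgeR's quasi-likelihood test gave an adjusted p under 0.05 among 16919 genes. PBS replicate 3 stood apart. Its correlation with the other PBS libraries was 0.939 to 0.944 on the log2 scale of scaled counts, against 0.995 to 0.999 between all other replicates, and relative to the other PBS libraries the third of genes with the shortest transcripts had a median log2 ratio of 0.68 and the third with the longest one of -0.82. Among the 9 genes its log2 ratio to the other PBS libraries was 1.67 for *Timp1*, -1.62 for *Mmp19* and -2.49 for *Timp3*, and between -0.53 and 0.40 for the other 6. Fold changes and calls of the 9 genes that rest on it are therefore given with and without that library. Correlations and genes of like pattern include it and are not given without it. Values of other genes are with all libraries unless stated. All 9 macrophage markers on the list passed the filter, and their summed normalized counts lay between 987085 and 1257470. Of 12 neutrophil markers 3 passed, namely *Csf3r* with 84412 counts over the 15 libraries, *S100a8* with 2487 and *Camp* with 174. *Mpo*, *S100a9* and *Ly6g* had 0 counts, which allows up to 3 counts in the 894481445 of all libraries together. Fibroblast markers were present: 8 of 9 passed, *Col1a1*, *Col1a2* and *Postn* had 94363, 86986 and 50386 counts over the 15 libraries, and *Lum* had 46. Their summed normalized counts were 7942 to 15202 in PBS and 20346 to 20558 in LPS/IFNγ. Called higher against PBS were 5 of 8 in LPS, 5 in LPS/IFNγ and 1 in dsHMGB1, beside 26.7%, 29% and 23.3% of all genes. Without PBS replicate 3 *Pdgfra* was also called lower in LPS/IFNγ, beside 34.4% of all genes. Of 7 osteoclast markers 5 passed, and their sum was 69293 to 72564 in PBS and 35880 to 38301 in dsHMGB1. Of these, 2 were called higher and 2 lower in dsHMGB1 against PBS, beside 23.3% and 24.2% of all genes. Most of that sum was *Atp6v0d2* (63861 ± 2447 in PBS and 28249 ± 1793 in dsHMGB1), while *Acp5* went the other way, with 2055 ± 481 in PBS, 4932 ± 436 in dsHMGB1, 15996 ± 557 under LPS and 9398 ± 70.2 under LPS/IFNγ. The sum of the neutrophil markers, nearly all *Csf3r*, was 3090.4 to 5292 in PBS and 7690.3 to 7740.02 in LPS. The part of such cells in the results was not tested. In such bulk libraries fewer cells of a type and less RNA per cell cannot be told apart.

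The 6 metalloproteinases share a catalytic site in which 3 histidines hold the zinc ion. Its codons are shown because all 6 genes carry the site. Whether protease genes outside these 6 also carry it was not tested. The stretch of 33 coding bases was found once in each of the 6 transcripts with the longest coding part in GENCODE M21 and in none of the 3 TIMP transcripts. Capitals mark the histidine codons, and each is read 5′ to 3′ from the coding strand.
Mmp8: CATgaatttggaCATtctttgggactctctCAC
Mmp9: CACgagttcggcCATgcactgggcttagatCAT
Mmp12: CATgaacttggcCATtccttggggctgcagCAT
Mmp13: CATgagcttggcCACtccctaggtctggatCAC
Mmp14: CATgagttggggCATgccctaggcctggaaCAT
Mmp19: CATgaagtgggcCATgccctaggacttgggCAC
Each pair of genes shared between 20 and 25 of these 33 bases. *Mmp14* shared 25 with *Mmp9*, *Mmp13* and *Mmp19*, as did *Mmp12* with *Mmp13*, while *Mmp8* shared 20 with *Mmp9* and with *Mmp14*. The site began at codon 401 of 730 in *Mmp9* and between codons 213 and 239 in the other 5, and *Mmp9* had the longest coding part of the 6 (2193 bases with the stop codon, against 1398 to 1749). Near-identical copies could blur the counts, so stretches of 50 bases were compared between genes. No stretch of 50 bases in the transcripts of *Mmp8*, *Mmp9*, *Mmp12*, *Mmp13*, *Timp1* or *Timp2* was found in a transcript of another gene, and 0.746% of those of *Mmp14* were.

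On GRCm38 the members lie on 6 chromosomes. *Mmp13* is at chr9:7272514-7283331 (+), *Mmp12* at chr9:7344381-7369499 (+) and *Mmp8* at chr9:7558456-7568485 (+), within 1 cluster of MMP genes. *Mmp9* is at chr2:164940780-164955850 (+), *Mmp14* at chr14:54431612-54445364 (+) and *Mmp19* at chr10:128790910-128800824 (+). *Timp1* is at chrX:20870166-20874735 (+) inside an intron of *Syn1* on the other strand, *Timp2* at chr11:118301069-118355740 (-) and *Timp3* at chr10:86300372-86349506 (+) opposite *Syn3*. Exons of *Mmp19* overlap those of *Tmem198b* on the opposite strand over 789 bases, exons of *Timp3* overlap *Syn3* over 1733, and exons of *Mmp12* overlap *Mmp1b* over 157. *Tmem198b* had 4624 counts, *Syn3* 137 and *Mmp1b* 6 over all libraries, and since the strand setting of the counting is not given in the sources used here, reads of these members are uncertain to that extent. Of the 50-base stretches of their transcripts, 25.4% in *Mmp19* and 36.3% in *Timp3* also occurred in a transcript of another gene on either strand.

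Sequence before the start site is shown for the 3 members of the cluster and for *Mmp14*, because the cluster neighbours responded unalike and *Mmp13* and *Mmp14* both rose. RefSeq windows on GRCm38.p6 were found for 7 of the 9 genes (8 windows, 2 of them for *Mmp12*). The motifs searched on both strands were AP-1 (TGANTCA), the interferon-gamma site GAS (TTCNNNGAA), the interferon-stimulated response element ISRE (GAAANNGAAA), the TATA box (TATAAA), PEA3 (AGGAAG) and the NF-kB site (GGGRNNYYCC). In these letters N is any base, R is A or G, and Y is C or T. Capitals mark matches to any of them but PEA3, and all 4 stretches are on the plus strand, 5′ to 3′. The *Mmp12* stretch ends 16 bases early, where the GENCODE gene begins.
Mmp13, chr9:7272264-7272513: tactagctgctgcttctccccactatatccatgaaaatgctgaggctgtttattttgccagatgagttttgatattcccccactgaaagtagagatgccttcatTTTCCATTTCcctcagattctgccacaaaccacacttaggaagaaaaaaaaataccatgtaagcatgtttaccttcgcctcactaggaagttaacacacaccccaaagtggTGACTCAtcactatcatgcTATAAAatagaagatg
Mmp12, chr9:7344147-7344380: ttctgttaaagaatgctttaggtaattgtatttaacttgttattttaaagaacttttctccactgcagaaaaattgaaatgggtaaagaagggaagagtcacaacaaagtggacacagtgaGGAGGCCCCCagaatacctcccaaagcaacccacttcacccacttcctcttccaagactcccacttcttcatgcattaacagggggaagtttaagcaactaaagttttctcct
Mmp8, chr9:7558179-7558428: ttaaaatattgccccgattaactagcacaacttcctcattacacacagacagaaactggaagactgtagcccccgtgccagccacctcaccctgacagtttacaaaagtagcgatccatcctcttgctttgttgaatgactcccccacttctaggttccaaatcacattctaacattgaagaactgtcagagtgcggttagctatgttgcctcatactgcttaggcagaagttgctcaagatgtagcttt
Mmp14, chr14:54431348-54431597: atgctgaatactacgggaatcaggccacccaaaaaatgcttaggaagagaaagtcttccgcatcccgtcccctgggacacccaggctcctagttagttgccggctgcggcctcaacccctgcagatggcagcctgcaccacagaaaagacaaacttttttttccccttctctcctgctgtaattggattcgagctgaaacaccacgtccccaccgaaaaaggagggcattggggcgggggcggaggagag
In the 250 bases before the start of *Mmp13* there was an AP-1 match at -35 to -29, a TATA box at -16 to -11, an ISRE match at -146 to -137 and 2 PEA3 matches. The first *Mmp12* window held an NF-kB match at -129 to -120 and 1 PEA3 match, and its second window an AP-1 match at -44 to -38. Of the 6 motifs only PEA3 was found in the windows of *Mmp14*, *Mmp8*, *Timp1* and *Timp3*, and none of the motifs in that of *Timp2*. None of the matches overlapped another. Over all 32851 windows of this length AP-1 was present in 6.75%, NF-kB in 7.25%, GAS in 7.02%, ISRE in 2.98%, the TATA box in 12.4% and PEA3 in 29.5%. These are matches of letters in a window, and nothing was measured here at the sites.

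**Figure D1:**
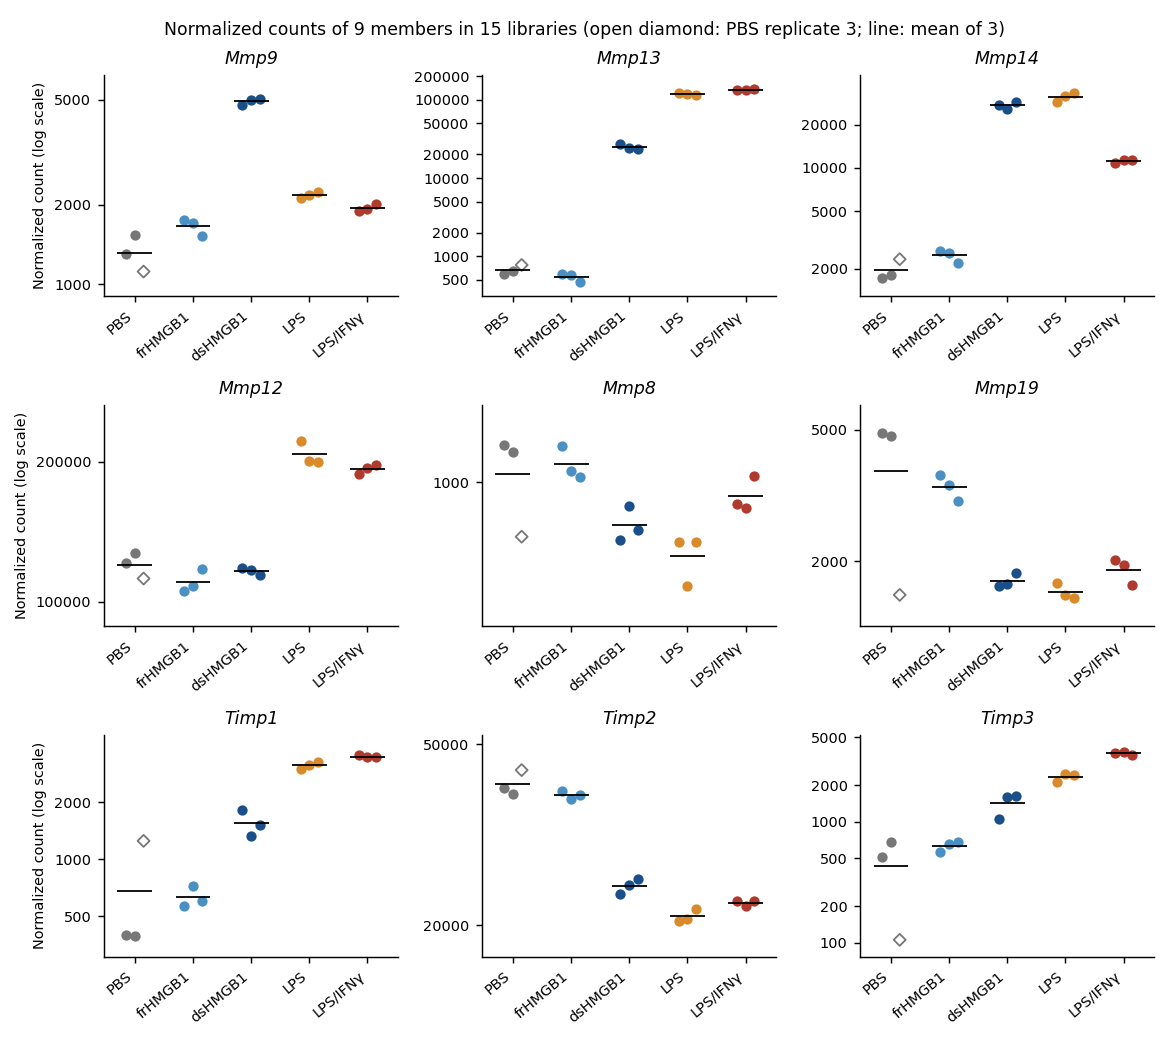
Normalized counts (log scale) of the 9 genes in each of 15 libraries, with the mean of each condition as a line and PBS replicate 3 as an open diamond. *Mmp9* is highest in dsHMGB1 (mean 4942), *Mmp13* and *Timp1* are highest in LPS/IFNγ, *Mmp14* in LPS, and *Timp2* is lower in dsHMGB1, LPS and LPS/IFNγ than in PBS.

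*Mmp9*, gelatinase B, cuts denatured collagen and the type IV collagen of basement membranes. Its normalized counts were 1307, 1533 and 1116 in PBS and 1757, 1705 and 1518 in frHMGB1. In dsHMGB1 they were 4779, 5010.2 and 5035, in LPS 2128, 2172 and 2231, and in LPS/IFNγ 1892, 1929.97 and 2019.8. The lowest dsHMGB1 library was above the highest library of every other condition, LPS and LPS/IFNγ lay apart from PBS and from each other, and only PBS and frHMGB1 overlapped. The dsHMGB1 mean, 4942 ± 141 (SD, n = 3), was 3.74-fold higher than the PBS mean of 1319 ± 209, 2.98-fold higher than frHMGB1, 2.27-fold higher than LPS and 2.54-fold higher than LPS/IFNγ. Against PBS the log2 fold change was 0.33 ± 0.11 (SE) in frHMGB1, 1.90 ± 0.11 in dsHMGB1, 0.72 ± 0.11 under LPS and 0.56 ± 0.11 under LPS/IFNγ. Without PBS replicate 3 these values were 0.23 ± 0.08, 1.80 ± 0.08, 0.61 ± 0.08 and 0.45 ± 0.08. The gene with the nearest pattern over the 15 libraries, on log2(normalized count + 1), was *Ppfibp2* (Pearson r = 0.993), with means of 1376 in PBS, 6976 in dsHMGB1, 2814 under LPS and 2309 under LPS/IFNγ. It was followed by the prostacyclin receptor gene *Ptgir* (0.958), the zinc transporter gene *Slc39a13* (0.957), *Fam219a* (0.954) and the scavenger receptor gene *Marco* (0.953), whose means were 27.2 in PBS and 3398 in dsHMGB1. These correlations are over 15 libraries that share their conditions and depth, and they describe likeness of pattern alone.

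*Mmp13*, collagenase 3, cuts fibrillar collagens. The libraries had normalized counts of 593, 651 and 774 in PBS and 602, 570.2 and 472 in frHMGB1. They were 26947, 24017 and 23748 in dsHMGB1, 120075, 120044 and 116409 under LPS and 134688, 132708 and 137348 under LPS/IFNγ. The PBS and frHMGB1 libraries overlapped and lay far below all others, and dsHMGB1, LPS and LPS/IFNγ followed in that order without overlap. *Mmp13* rose 37.2-fold in dsHMGB1 (log2 fold change 5.22 ± 0.11, edgeR adjusted p = 1.45e-12), 177-fold in LPS (7.47 ± 0.11, 9.07e-14) and 201-fold in LPS/IFNγ (7.65 ± 0.11, 7.36e-14). It was 45.4-fold higher in dsHMGB1 than in frHMGB1 (edgeR adjusted p = 1.30e-12). Relative to LPS it was 4.77-fold lower in dsHMGB1 (adjusted p = 2.64e-08) and relative to LPS/IFNγ 5.42-fold lower (2.62e-09, edgeR). LPS/IFNγ and LPS differed by a log2 fold change of 0.18 ± 0.11, which did not pass the test (edgeR adjusted p = 0.14) although the libraries did not overlap. All calls of *Mmp13* held in each of the 22 alternatives run. *Arrdc4* (0.998) and *D16Ertd472e* (0.998) had the most similar patterns (Pearson r, 15 libraries).

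*Mmp8*, known as neutrophil collagenase, also cuts fibrillar collagen, and all its libraries lay between 650.1 and 1168. Normalized counts of *Mmp8* were 1168, 1136 and 798 in PBS, 1162, 1051 and 1022 in frHMGB1 and 786, 907 and 821 in dsHMGB1. In LPS they were 779, 650.1 and 779 and in LPS/IFNγ 914, 899 and 1028. Except for dsHMGB1 above LPS, all neighbours in the order of means (frHMGB1, PBS, LPS/IFNγ, dsHMGB1, LPS) overlapped. *Mmp8* fell in LPS alone of the stimulations against PBS, 1.41-fold lower (log2 fold change -0.49 ± 0.15, edgeR adjusted p = 0.00705), and this call was lost without LPS replicate 2 (0.0574) and with LPS and PBS fitted alone (0.123, range over 22 alternatives 4.30e-06 to 0.123). In dsHMGB1 the log2 fold change against PBS was -0.31 ± 0.15 (adjusted p = 0.107) with all libraries. Without PBS replicate 3 *Mmp8* was also called lower in dsHMGB1 (-0.46 ± 0.10, edgeR adjusted p = 2.29e-04, over all alternatives 2.29e-04 to 0.331) and in LPS/IFNγ (-0.29 ± 0.10, 0.00327, 0.00327 to 0.818). *P2rx7*, which encodes an ATP-gated channel (0.948), and *Atf7ip* (0.946) were the genes most like it.

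*Mmp14* encodes a membrane-bound MMP that cuts fibrillar collagen at the cell surface and, together with TIMP-2, activates the proenzyme of MMP-2. Its normalized counts were 1718, 1819 and 2327 in PBS and 2670.4, 2555 and 2195 in frHMGB1. Stimulation took them to 27384, 25770.5 and 28873 in dsHMGB1, 28671, 31542 and 33366 under LPS and 10873, 11439.9 and 11347 under LPS/IFNγ. The dsHMGB1 and LPS libraries overlapped each other, LPS/IFNγ lay between them and the pair of PBS and frHMGB1, and these latter overlapped. *Mmp14* rose 14.01-fold in dsHMGB1 (log2 fold change 3.81 ± 0.13, edgeR adjusted p = 2.12e-11), 16.0-fold in LPS (3.998 ± 0.13, 8.74e-12) and 5.75-fold in LPS/IFNγ (2.52 ± 0.13, 3.42e-10). The difference between dsHMGB1 and LPS did not pass the test, with a log2 fold change of -0.19 and a 95% interval of -0.43 to 0.05 (edgeR adjusted p = 0.402). In dsHMGB1 it was 2.44-fold higher than in LPS/IFNγ (adjusted p = 7.90e-07), and in LPS/IFNγ it was 2.78-fold lower than in LPS (6.57e-07, edgeR). In frHMGB1 the log2 fold change against PBS was 0.34 ± 0.13 (edgeR adjusted p = 0.0623), and without PBS replicate 3 it was 0.49 ± 0.09 and called higher (edgeR adjusted p = 4.52e-04), as it was without frHMGB1 replicate 3 (0.0396, range over all alternatives 4.52e-04 to 0.854). The chemokine gene *Ccl9* (0.997) and the interferon-stimulated gene *Ifit3* (0.996) were nearest to it in pattern.

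*Mmp12*, macrophage elastase, cuts elastin and was the most abundant MMP transcript of unstimulated cells. Its normalized counts were 121330, 127078 and 112267 in PBS, 105791, 108427 and 117450 in frHMGB1 and 117996, 117157 and 114217 in dsHMGB1. LPS gave 221884, 200486 and 200042 and LPS/IFNγ 188298, 193559 and 196690. PBS, frHMGB1 and dsHMGB1 overlapped, and every LPS and LPS/IFNγ library lay above them. *Mmp12* rose 1.73-fold in LPS (log2 fold change 0.79 ± 0.07, edgeR adjusted p = 1.13e-05) and 1.60-fold in LPS/IFNγ (0.68 ± 0.07, 2.73e-05). In dsHMGB1 the log2 fold change against PBS was -0.05, with a 95% interval of -0.18 to 0.09 (adjusted p = 0.62, edgeR). The difference between dsHMGB1 and LPS was itself past the test (-0.83 ± 0.07, adjusted p = 3.28e-05), as was that between dsHMGB1 and LPS/IFNγ (-0.73 ± 0.07, 3.79e-05, edgeR), and these 4 calls held in all 22 alternatives. The zinc transporter gene *Slc39a8* (0.974) and *Zfp945* (0.967) had the nearest patterns.

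*Mmp19*, a secreted MMP that acts on basement membrane proteins, had normalized counts of 4895, 4798 and 1580.3 in PBS and 3644, 3404 and 3046 in frHMGB1. It had 1682, 1705 and 1841 in dsHMGB1, 1721, 1575 and 1545 under LPS and 2014, 1942 and 1689 under LPS/IFNγ. PBS replicate 3 lay with the LPS libraries and below every dsHMGB1 library, while the other PBS libraries were the highest of all. *Mmp19* fell 2.16-fold in dsHMGB1 (log2 fold change -1.11 ± 0.31, edgeR adjusted p = 0.00857), 2.33-fold in LPS (-1.22 ± 0.31, 0.00267) and 1.998-fold in LPS/IFNγ (-0.999 ± 0.31, 0.0104). Without PBS replicate 3 the same falls were 2.79-fold, 3.02-fold and 2.60-fold, and *Mmp19* was then also called lower in frHMGB1 (-0.52 ± 0.09, edgeR adjusted p = 2.39e-04, over all alternatives 2.39e-04 to 0.95). With the 2 conditions of a comparison fitted alone, all 3 of the falls against PBS lost their call (edgeR adjusted p = 0.0995, 0.0612 and 0.110, the highest of their 22 alternatives, whose lowest were 2.81e-11, 6.49e-12 and 3.62e-11). The fold change between the isoforms does not use PBS, and *Mmp19* was 1.93-fold lower in dsHMGB1 than in frHMGB1 (adjusted p = 0.0184, edgeR). That call was lost without frHMGB1 replicate 1 (0.0542), dsHMGB1 replicate 1 (0.0550) or dsHMGB1 replicate 2 (0.0542, range over 22 alternatives 3.92e-09 to 0.055). PBS libraries still enter the shared spread, and the lowest adjusted p came without PBS replicate 3. The log2 fold change was then -0.96 ± 0.08, against -0.95 ± 0.31 with all libraries. *Cd93* (0.977) and *Eif4b* (0.969) had the most similar patterns.

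Among the inhibitors, *Timp2* had the highest level per kilobase of merged exon in each condition and fell in dsHMGB1, LPS and LPS/IFNγ against PBS, while *Timp1* and *Timp3* rose. Per kilobase *Timp2* was 10513 and *Timp1* 765 in PBS, and 5754 and 3929 in LPS/IFNγ. *Timp2* encodes a secreted inhibitor that also serves as the adaptor for MMP-2 activation on MMP-14. Its normalized counts were 40172, 38814 and 43887 in PBS and 39523, 37958 and 38738 in frHMGB1. They were 23398, 24476 and 25326 in dsHMGB1, 20401, 20675 and 21712 under LPS and 22574, 22077 and 22599.9 under LPS/IFNγ. PBS and frHMGB1 overlapped and all other neighbours in the order lay apart. *Timp2* fell 1.68-fold in dsHMGB1 (log2 fold change -0.75 ± 0.06, edgeR adjusted p = 9.54e-07), 1.957-fold in LPS (-0.97 ± 0.06, 2.51e-08) and 1.83-fold in LPS/IFNγ (-0.87 ± 0.06, 9.71e-08), and it was 1.59-fold lower in dsHMGB1 than in frHMGB1 (2.19e-06). These 4 calls held in all 22 alternatives. *Timp2* was 1.17-fold higher in dsHMGB1 than in LPS (edgeR adjusted p = 0.00964), which was lost without LPS replicate 1 (0.0675) or 2 (0.0750) and without the filter on low counts (0.109, range over 22 alternatives 2.42e-04 to 0.109). *Paqr7* (0.996) and *Rab40c* (0.994) were nearest in pattern.

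*Timp1* encodes a secreted inhibitor that also binds the proenzyme of MMP-9. Its normalized counts were 396, 392 and 1249.99 in PBS and 563, 717 and 603 in frHMGB1. They were 1821, 1324 and 1513 in dsHMGB1, 3018, 3152 and 3263 under LPS and 3543, 3464 and 3459 under LPS/IFNγ. PBS replicate 3 was above every frHMGB1 library, while the other PBS libraries were below them, and dsHMGB1, LPS and LPS/IFNγ followed in that order without overlap. *Timp1* rose 2.29-fold in dsHMGB1 (log2 fold change 1.20 ± 0.36, edgeR adjusted p = 0.00735), 4.64-fold in LPS (2.21 ± 0.36, 7.33e-05) and 5.15-fold in LPS/IFNγ (2.36 ± 0.36, 3.55e-05). Without PBS replicate 3 the rises were 3.93-fold, 7.94-fold and 8.80-fold. The call in dsHMGB1 was lost with dsHMGB1 and PBS fitted alone (edgeR adjusted p = 0.102, range over 22 alternatives 9.28e-11 to 0.102). PBS replicate 3 also turned the sign in frHMGB1, where the log2 fold change was -0.11 ± 0.36 with it and 0.68 ± 0.12 without it (edgeR adjusted p = 6.72e-04, over all alternatives 6.72e-04 to 0.994). *Timp1* was 2.47-fold higher in dsHMGB1 than in frHMGB1 (adjusted p = 0.00508, edgeR). It was 2.25-fold lower in dsHMGB1 than in LPS/IFNγ (adjusted p = 0.0137) and 2.03-fold lower than in LPS (0.0409, edgeR), and the call against LPS/IFNγ was lost without dsHMGB1 replicate 2 (0.0563, range over 22 alternatives 1.36e-08 to 0.0563). The call against LPS was lost in 11 of 22 alternatives, among them those without any 1 library of frHMGB1, dsHMGB1 or LPS or without LPS/IFNγ replicate 3 (edgeR adjusted p between 0.05003 and 0.134, range over all alternatives 1.37e-07 to 0.134). For both calls the lowest adjusted p came without PBS replicate 3, which enters the shared spread. The log2 fold changes were then -1.01 ± 0.10 against LPS and -1.16 ± 0.10 against LPS/IFNγ. With all libraries they were -1.02 ± 0.35 and -1.17 ± 0.35. *Rtca* (0.993) and *Chmp4b* (0.993) had the nearest patterns.

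*Timp3* encodes the inhibitor that stays bound to the matrix and also blocks ADAM17, the protease that sheds TNF. The libraries had normalized counts of 508, 674 and 105 in PBS and 558, 649 and 675 in frHMGB1. They were 1052, 1608 and 1627 in dsHMGB1, 2112, 2473 and 2441 under LPS and 3672, 3792 and 3588 under LPS/IFNγ. The order of means was the same as for *Timp1* from dsHMGB1 upwards, without overlap, and PBS replicate 3 was the lowest library of all. With all libraries *Timp3* rose 3.32-fold in dsHMGB1 (log2 fold change 1.73 ± 0.44, edgeR adjusted p = 0.00678), 5.45-fold in LPS (2.45 ± 0.44, 5.33e-04) and 8.57-fold in LPS/IFNγ (3.10 ± 0.44, 7.29e-05). Without PBS replicate 3 the rises were 2.41-fold, 3.94-fold and 6.19-fold. With dsHMGB1 and PBS fitted alone the call in dsHMGB1 was lost (edgeR adjusted p = 0.0943, range over 22 alternatives 2.18e-06 to 0.0943). *Timp3* was 2.28-fold higher in dsHMGB1 than in frHMGB1 (edgeR adjusted p = 0.0413) and 2.58-fold lower than in LPS/IFNγ (0.0296). The call against frHMGB1 was lost in 12 of 22 alternatives, those without any 1 library of frHMGB1, LPS or LPS/IFNγ, without dsHMGB1 replicate 2 or 3, and with a replicate block (range over all alternatives 9.82e-07 to 0.115, edgeR). That against LPS/IFNγ was lost without any 1 library of dsHMGB1 or LPS/IFNγ (edgeR adjusted p between 0.0612 and 0.120, range over all alternatives 1.35e-07 to 0.12). All libraries share 1 estimate of spread, also where PBS is not compared. Without PBS replicate 3 these log2 fold changes were 1.18 ± 0.15 against frHMGB1 and -1.36 ± 0.14 against LPS/IFNγ (edgeR adjusted p = 9.82e-07 and 1.35e-07). With all libraries they were 1.19 ± 0.44 and -1.37 ± 0.43. *Wac* (0.996) and *Prkx* (0.995) were the genes most like it.

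**Figure D2:**
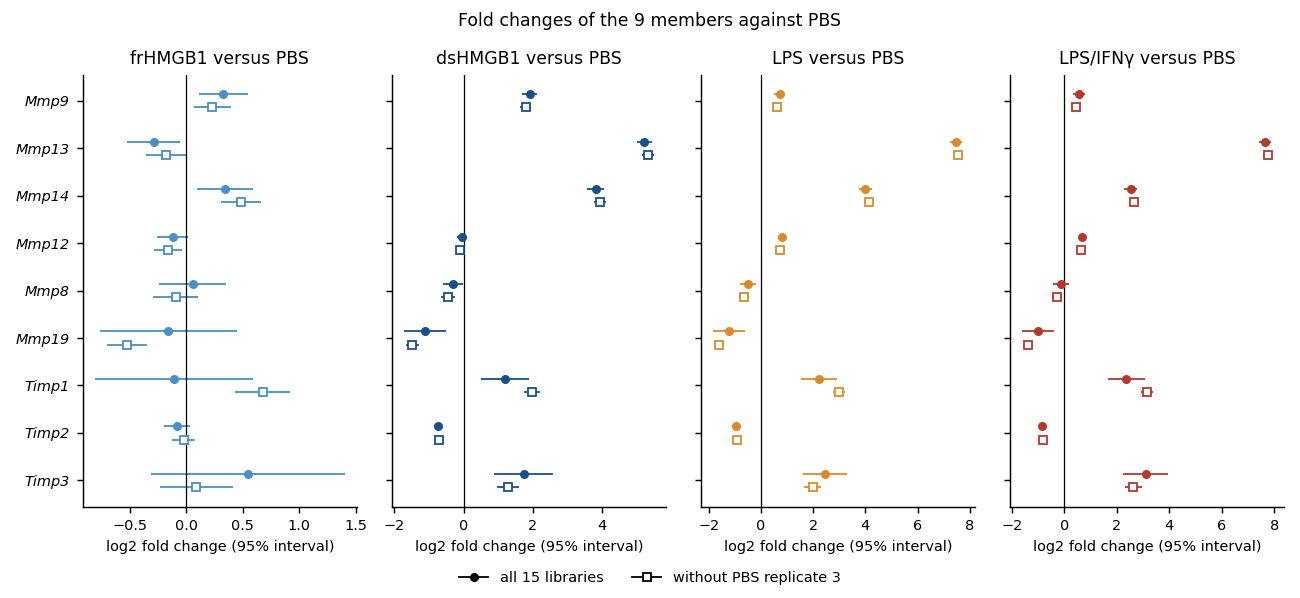
DESeq2 log2 fold change against PBS (x axis, with 95% interval) of each of the 9 genes in the 4 stimulations, with all 15 libraries (filled circles) and without PBS replicate 3 (open squares). The widest intervals are those of *Timp1*, *Timp3* and *Mmp19*, and *Timp1* in frHMGB1 moves from -0.11 to 0.68. *Mmp9* is shown with no test.

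The comparison of frHMGB1 with PBS asks what the reduced isoform does. None of the 8 tested genes was called by edgeR (0 higher, 0 lower), 2 had an unadjusted p under 0.05, and DESeq2's test called 0, beside a background of 1.31% of all genes called higher (222) and 5.69% called lower (963). That split turned to 41 higher and 29 lower with protein-coding genes alone and normalization factors from them. The largest value was that of *Timp3*, 0.54 ± 0.44, with an interval that spans -0.31 to 1.40. When PBS replicate 3 was left out, 2 were called higher (*Mmp14* and *Timp1*) and 1 lower (*Mmp19*), beside 8.41% and 9.09% of all genes under the same fit.

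In dsHMGB1 versus PBS 4 of the 8 rose (*Mmp13*, *Mmp14*, *Timp1*, *Timp3*) and 2 fell (*Mmp19*, *Timp2*). Over all genes 23.3% were called higher and 24.2% lower. On edgeR's scale the median log2 fold change of the 8 was 0.58 and that of all tested genes -0.11. In LPS versus PBS 5 rose, the same 4 and *Mmp12*, and 3 fell (*Mmp8*, *Mmp19*, *Timp2*), beside 26.7% higher and 36.2% lower over all genes. LPS/IFNγ versus PBS gave 5 higher and 2 lower, again with *Mmp12* among the former, beside 29% and 31.2%. Left without PBS replicate 3, these comparisons had 4, 5 and 5 called higher and 3 each called lower, with *Mmp8* joining the latter in dsHMGB1 and LPS/IFNγ. The shares of all genes were then 29.8% and 29% in dsHMGB1, 32.9% and 38.3% in LPS, and 33.3% and 34.4% in LPS/IFNγ. The 4 comparisons against PBS share the PBS libraries.

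Between the isoforms, at the same concentration, 4 of the 8 were higher in dsHMGB1 than in frHMGB1 (*Mmp13*, *Mmp14*, *Timp1*, *Timp3*) and 2 lower (*Mmp19*, *Timp2*), beside 27.7% and 23.1% over all genes. *Mmp12* differed by a log2 fold change of 0.08 (95% interval -0.06 to 0.21) and *Mmp8* by -0.36 (-0.66 to -0.07), neither of which passed the test with all libraries. The libraries of *Mmp8* did not overlap between the isoforms, and it was called lower in dsHMGB1 in 6 of 22 alternatives, with the lowest edgeR adjusted p without PBS replicate 3 (7.16e-04, over all alternatives 7.16e-04 to 0.318). That library enters no mean here, but it enters the estimate of spread that all libraries share. Without it the log2 fold change of *Mmp8* was -0.37 ± 0.10, against -0.36 ± 0.15 with all libraries. Leaving it out also changed the number of genes tested from 16919 to 17339. The fit without it gave 4 higher and 3 lower, beside 35.8% and 32.9% of all genes.

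When dsHMGB1 was set against LPS, both ligands of TLR4, 1 of the 8 was higher in dsHMGB1 (*Timp2*) and 3 were lower (*Mmp12*, *Mmp13*, *Timp1*), beside 15.8% and 10.6% of all genes. The fold of *Mmp13*, 4.77-fold lower, was the largest of these 4. Against LPS/IFNγ, 1 was higher in dsHMGB1 (*Mmp14*) and 4 lower (*Mmp12*, *Mmp13*, *Timp1*, *Timp3*), beside 16.5% and 16.7%. *Mmp9* lay in the direction opposite to *Mmp13*, and its log2 fold change was 1.18 ± 0.11 against LPS and 1.34 ± 0.11 against LPS/IFNγ, given without a test. With PBS replicate 3 left out, *Timp3* was called lower in dsHMGB1 than in LPS as well (-0.71 ± 0.14, edgeR adjusted p = 3.71e-04, over all alternatives 3.71e-04 to 0.541), which made 1 higher and 4 lower beside 25.6% and 23.3%. *Timp2* was then called higher in dsHMGB1 than in LPS/IFNγ (0.13 ± 0.04, edgeR adjusted p = 0.0069, over all alternatives 0.0069 to 0.481), which made 2 higher and 4 lower beside 27.9% and 25.4%.

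Between LPS/IFNγ and LPS 1 of the 8 was called, *Mmp14*, which was lower, and none was called higher (0), beside 9.36% called lower and 16.3% higher over all genes. Of the 8, 2 had an unadjusted p under 0.05 and DESeq2's test called 1. In the fit without PBS replicate 3, *Mmp8*, *Mmp13*, *Mmp19* and *Timp3* were called higher in LPS/IFNγ than in LPS, beside 25.1% of all genes called higher and 24.3% lower, with log2 fold changes of 0.36 ± 0.10, 0.18 ± 0.07, 0.22 ± 0.09 and 0.65 ± 0.14. Among these 4, *Timp3* had the lowest edgeR adjusted p (5.97e-04, over all alternatives 2.00e-09 to 0.501) and *Mmp13* the highest (0.0471, 3.51e-05 to 0.446). With LPS and LPS/IFNγ fitted alone all 8 were called, 6 higher and 2 lower (*Mmp12* and *Mmp14*), beside 31% and 30.1% of all genes. Since the labels disagree on the LPS concentration, a change in LPS and the addition of IFN-γ cannot be told apart.

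Levels of different genes were compared per kilobase of merged exon. In PBS the order of means was *Mmp12* (16612 normalized counts per kilobase), *Timp2* (10513), *Mmp19* (1064), *Timp1* (765), *Mmp8* (426), *Mmp9* (373), *Mmp14* (328), *Mmp13* (252) and *Timp3* (52.7). *Timp1* had 443 per kilobase without PBS replicate 3 and came after *Mmp8* (475), and the other 7 kept their place. *Mmp13* moved from the eighth place in PBS to the second in dsHMGB1 (9317 per kilobase) and the first in LPS (44460.4) and LPS/IFNγ (50473). *Mmp14* moved from the seventh to the fourth in dsHMGB1 (4588) and LPS (5234). *Mmp9*, although highest in dsHMGB1, stayed the sixth there with 1396 per kilobase, below *Timp1* at 1749. The order depends on the length used. With the length of the longest transcript in place of merged exons, *Mmp12* was above *Mmp13* in LPS and *Mmp14* above *Timp2* in dsHMGB1 and LPS, and 6, 5, 7, 2 and 6 of the 9 kept their place in PBS, frHMGB1, dsHMGB1, LPS and LPS/IFNγ.

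The balance of enzyme and inhibitor transcripts lay further towards the enzymes in dsHMGB1, LPS and LPS/IFNγ than in PBS, given as a description of sums over genes whose values had been seen. The summed level of the 6 MMPs per kilobase was 19055 ± 1592 (SD, n = 3) in PBS, 17763 ± 635 in frHMGB1, 32231 ± 779 in dsHMGB1, 79738 ± 1863 under LPS and 80476 ± 1266 under LPS/IFNγ. The 3 TIMPs summed to 11330.1 ± 1185, 10728 ± 110.3, 8187 ± 216, 9201 ± 328 and 10135 ± 101 in the same order. Their ratio was 1.80, 1.94 and 1.36 in the PBS libraries, 1.59, 1.65 and 1.73 in frHMGB1, 4.05, 3.99 and 3.78 in dsHMGB1, 9.20, 8.65 and 8.19 under LPS and 7.79, 7.95 and 8.08 under LPS/IFNγ. The PBS and frHMGB1 ratios overlapped, the dsHMGB1 ratios lay above both, and those of LPS and LPS/IFNγ above dsHMGB1. Per kilobase of the longest transcript the mean ratios were 2.52, 2.45, 5.35, 10.5 and 9.15. The makeup of both sums differed as well. *Mmp12* made up 87.3 ± 2.13% of the MMP sum in PBS, 49.9 ± 0.908% in dsHMGB1 and 33.1 ± 0.445% in LPS/IFNγ, and *Mmp13* 1.34 ± 0.296%, 28.9 ± 1.35% and 62.7 ± 0.49%. *Timp2* made up 93.0 ± 3.67% of the TIMP sum in PBS, 76.5 ± 2.82% in dsHMGB1 and 56.8 ± 0.399% in LPS/IFNγ, while *Timp1* took 6.47 ± 4.004%, 21.3 ± 3.31% and 38.8 ± 0.296%. From the other PBS libraries alone, without replicate 3, the share of *Timp1* in PBS was 4.16%, that of *Timp2* 95.2% and the ratio of the sums 1.87. Transcript sums say nothing of secreted or active protein, which was not measured.

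**Figure D3:**
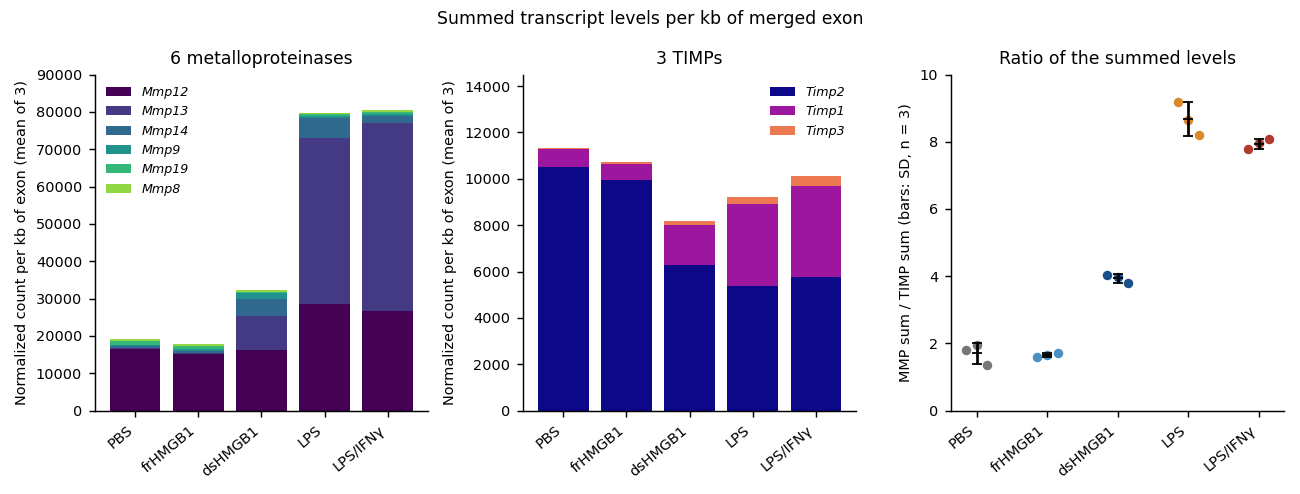
Mean normalized counts per kilobase of merged exon, stacked by gene, for the 6 MMPs (left) and the 3 TIMPs (middle), and the ratio of the sums in each library with mean and SD (right, n = 3). The ratio is 1.70 in PBS, 3.94 in dsHMGB1 and 8.68 in LPS, and *Mmp13* makes up most of the MMP sum in LPS and LPS/IFNγ.

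The MMP genes around *Mmp12* differed in level and response although they are neighbours. Within 1 Mb of the start of *Mmp12* lie 10 listed MMP genes. Their starts run from *Mmp13* at -71.9 kb over *Mmp1b* (23.9), *Mmp3* (101), *Mmp1a* (120), *Mmp10* (158), *Mmp8* (214), *Mmp27* (227) and *Mmp20* (284) to *Mmp7* at 348 kb. *Mmp1a* and *Mmp20* had 0 counts in all libraries, *Mmp7* had 2 and *Mmp1b* 6, and none of these 4 was tested. *Mmp10*, stromelysin 2, had means of 42.1 ± 14.6 in PBS, 82.2 ± 9.58 in frHMGB1, 399.96 ± 15.8 in dsHMGB1, 443 ± 106 under LPS and 239.7 ± 22.4 under LPS/IFNγ, and was called higher in all 4 stimulations. *Mmp3*, stromelysin 1, was low but rose from 9.34 ± 3.93 in PBS to 102 ± 23.3 in dsHMGB1, 71.4 ± 4.77 under LPS and 23.1 ± 2.63 under LPS/IFNγ. *Mmp13*, *Mmp3* and *Mmp10* thus rose in dsHMGB1, while *Mmp27*, next to *Mmp8*, fell there (-0.46 ± 0.11, edgeR adjusted p = 0.00649) and *Mmp12* and *Mmp8* did not pass the test. *Mmp3* and *Mmp10* were both lower in LPS/IFNγ than in LPS (-1.63 ± 0.31 and -0.89 ± 0.21), the direction of *Mmp14*. *Mmp13* was not called in that comparison with all libraries (0.18 ± 0.11, edgeR adjusted p = 0.14).

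**Figure D4:**
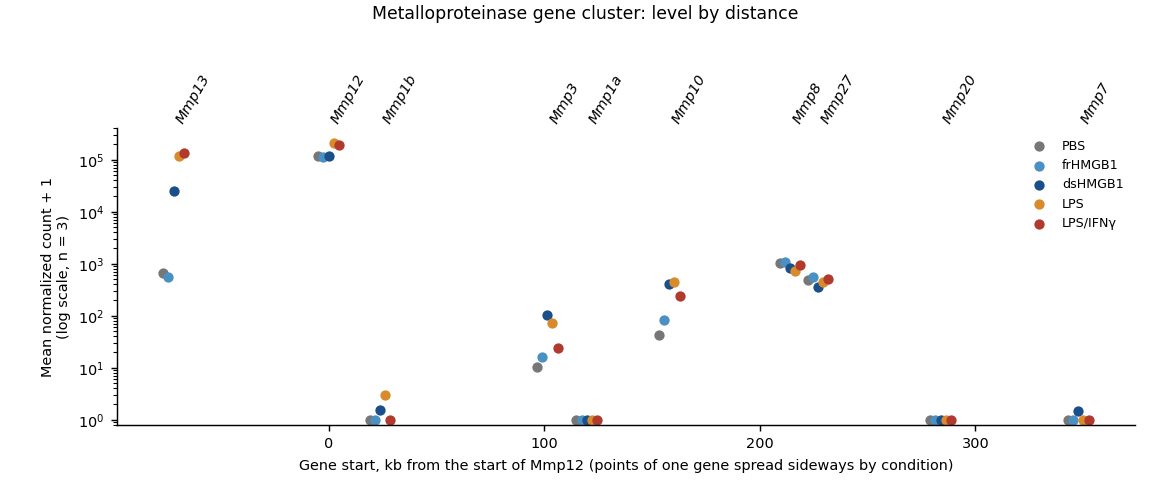
Mean normalized count + 1 (log scale, n = 3) of the 10 MMP genes within 1 Mb of *Mmp12*, by the distance of their start from that of *Mmp12* (kb), coloured by condition. *Mmp13* spans the widest range, from 548 in frHMGB1 to 134915 in LPS/IFNγ, while *Mmp8* and *Mmp27* stay within 736 to 1078 and 352 to 564.

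The 80 other genes listed for this system were MMPs, further inhibitors, activators and anchors of MMPs, ADAM and ADAMTS proteases and matrix genes, and 66 were tested. Of these, 4 rose and 0 fell in frHMGB1 against PBS, 30 rose and 8 fell in dsHMGB1, 38 rose and 8 fell in LPS, and 42 rose and 6 fell in LPS/IFNγ. The list medians were 0.20, 0.55, 0.77 and 0.78 on edgeR's log2 scale, beside 0.0028, -0.11, -0.27 and -0.15 for all genes tested. Leaving out PBS replicate 3 gave 8 and 5, 32 and 10, 41 and 10, and 41 and 10. Between dsHMGB1 and frHMGB1 26 were higher and 8 lower, between dsHMGB1 and LPS 7 and 17, between dsHMGB1 and LPS/IFNγ 11 and 21, and between LPS/IFNγ and LPS 8 and 9. The background over all genes in each comparison is the one given for the 8 members. The split in dsHMGB1 versus LPS was 10 and 30 in the fit without that library.

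Of 17 other MMP genes 11 were tested, and 5 rose and 2 fell in dsHMGB1 against PBS, 6 and 2 in LPS, and 6 and 1 in LPS/IFNγ, the last of which became 5 and 2 without PBS replicate 3. Over all genes 23.3% were called higher and 24.2% lower in dsHMGB1, 26.7% and 36.2% in LPS, and 29% and 31.2% in LPS/IFNγ. The last shares were 33.3% and 34.4% without PBS replicate 3. *Mmp25*, which encodes a membrane-anchored MMP, had means of 4.78 ± 2.93 in PBS, 175 ± 39.2 in dsHMGB1, 785 ± 95.9 under LPS and 4206 ± 116 under LPS/IFNγ, and was 5.36-fold higher in LPS/IFNγ than in LPS (edgeR adjusted p = 1.19e-05). *Mmp28*, or epilysin, rose from 11.5 ± 8.34 in PBS to 132 ± 17.8 in dsHMGB1, 167 ± 13.3 under LPS and 306 ± 13.6 under LPS/IFNγ. *Mmp2*, gelatinase A and the enzyme activated on MMP-14, was 545 ± 85.5 in PBS and 761 ± 116 in dsHMGB1, a log2 fold change of 0.48 ± 0.14 that was called. *Mmp11*, stromelysin 3, was called lower in 3 comparisons with PBS, by -1.26 ± 0.42 in dsHMGB1, -1.15 ± 0.44 under LPS and -2.35 ± 0.47 under LPS/IFNγ.

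Of 8 further inhibitors 5 were tested, and 2 rose in dsHMGB1 against PBS, 3 in LPS and 3 in LPS/IFNγ. *Serpinb2*, plasminogen activator inhibitor 2, was 61.4, 84.5 and 9.37 in PBS, 228, 272 and 225 in frHMGB1, 1422, 1505 and 1495 in dsHMGB1 and 5437, 5546 and 5189 in LPS/IFNγ, and it was 1 of the 4 pathway genes called higher in frHMGB1 (log2 fold change 2.19 ± 0.41, edgeR adjusted p = 0.00515). *Serpinb2* was lower in dsHMGB1 than in LPS (-1.15 ± 0.39), as *Timp1* was. *Reck*, a membrane-anchored MMP inhibitor, was low and not called (10.4 ± 11.5 in PBS and 42.1 ± 11.2 in LPS/IFNγ, edgeR adjusted p = 0.0607), and *Timp4* had 10 counts in all and was not tested.

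Among 14 genes that activate, bind or anchor MMPs, 11 were tested, and 8 rose and 1 fell in dsHMGB1, 8 and 1 in LPS, and 8 and 2 in LPS/IFNγ. The shares of all genes were 23.3% higher and 24.2% lower, 26.7% and 36.2%, and 29% and 31.2%, in the same order. *Plau*, the urokinase that starts the plasmin cascade, was higher in dsHMGB1 (9899 ± 1001) than in LPS (5143 ± 207) and LPS/IFNγ (5251 ± 131), with log2 fold changes of 0.94 ± 0.11 and 0.91 ± 0.11 (edgeR adjusted p = 2.01e-05 and 1.82e-05). *Plaur*, its receptor, went the other way, from 10435 ± 1961 in dsHMGB1 to 44184 ± 682 in LPS and 60856 ± 1131 in LPS/IFNγ. *Plat*, tissue plasminogen activator, rose from 24.7 ± 13.1 in PBS to 149 ± 15.7 in dsHMGB1, 568 ± 59.8 under LPS and 223 ± 16.9 under LPS/IFNγ. *Furin*, which cuts the propeptide of MMP-14, was highest in LPS/IFNγ (57484 ± 2180.4, against 6552 ± 1500.2 in PBS and 16974 ± 1217 in LPS). *Lcn2*, whose product binds MMP-9, had 2 counts in all of PBS and normalized counts of 195, 158 and 225 in dsHMGB1, 531, 525 and 599.9 under LPS and 53.0, 39.99 and 41.1 under LPS/IFNγ, so unlike *Mmp9* it was highest in LPS. *Cd44*, a receptor that can hold MMP-9 at the surface, was 10434 ± 2338 in PBS, 47582 ± 3052 in dsHMGB1 and 115715 ± 3979 in LPS. *Lrp1*, which clears MMPs by endocytosis, fell to 49975 ± 9847 in dsHMGB1 and 29880.1 ± 3337 in LPS from 76978 ± 27668 in PBS. PBS replicate 3 had 45173 of *Lrp1*, against 90262 and 95498 in the other PBS libraries and 38802, 57388 and 53735 in dsHMGB1. Without that library *Lrp1* was still called lower in dsHMGB1 and LPS.

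Of 16 ADAM and ADAMTS genes 15 were tested, with 5 higher and 5 lower in dsHMGB1 against PBS, 6 and 5 in LPS, and 7 and 3 in LPS/IFNγ. The shares of all genes were 23.3% higher and 24.2% lower in dsHMGB1, 26.7% and 36.2% in LPS, and 29% and 31.2% in LPS/IFNγ. Without PBS replicate 3 the ADAM and ADAMTS counts in LPS/IFNγ became 6 and 6, beside 33.3% and 34.4% of all genes. *Adamts4*, an aggrecan-cutting protease, had normalized counts of 23.9, 41.6 and 21.1 in PBS, 2308, 3030.01 and 2971 in dsHMGB1, 9243, 10505 and 11274 under LPS and 5699, 5665 and 5553 under LPS/IFNγ, a log2 fold change of 6.54 ± 0.21 in dsHMGB1 (edgeR adjusted p = 1.19e-10). *Adam17*, the sheddase that TIMP-3 blocks, was highest in dsHMGB1, with 36699, 44393 and 41227 against 31186, 32076 and 32275 under LPS and 20724, 20829.8 and 20587 under LPS/IFNγ, and the differences were called (log2 fold changes 0.36 ± 0.13 and 0.98 ± 0.13, edgeR adjusted p = 0.0364 and 6.64e-05). *Adamts10* and *Adam33* fell in LPS/IFNγ (-2.30 ± 0.13 and -1.88 ± 0.25), and *Adam9* rose (1.73 ± 0.26). PBS replicate 3 was low for *Adam9*, with 3074 against 7264 and 7778 in the other PBS libraries.

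Matrix genes encode possible substrates. Of 25 genes 24 were tested, with 10 called higher in dsHMGB1, 15 under LPS and 18 under LPS/IFNγ against PBS, and 0 called lower, as in the fit without PBS replicate 3, where 12, 17 and 19 were higher. Over all genes 23.3%, 26.7% and 29% were called higher and 24.2%, 36.2% and 31.2% lower. Without that library the shares were 29.8%, 32.9% and 33.3% higher and 29%, 38.3% and 34.4% lower. In frHMGB1 0 were called in either direction with all libraries, beside 1.31% of all genes higher and 5.69% lower. Without PBS replicate 3, 2 were called higher and 4 lower (*Col1a1*, *Fbn1*, *Lamc1* and *Thbs1*), beside 8.41% and 9.09% of all genes. *Thbs1*, thrombospondin 1, had normalized counts of 3529, 3797 and 904 in PBS and 2069.6, 2136 and 2029 in frHMGB1. *Vcan*, the proteoglycan versican, had means of 101 ± 64.4 in PBS, 2181 ± 519 in dsHMGB1, 14413 ± 1725 under LPS and 35348 ± 1002 under LPS/IFNγ, and *Tnc*, tenascin C, 613 ± 204, 1549 ± 141, 5431 ± 508 and 21741 ± 497. *Col18a1*, whose product holds endostatin, was 6852 ± 298 in dsHMGB1 and 6966 ± 230.2 in LPS but 1772 ± 86.5 in LPS/IFNγ, from 829.7 ± 227 in PBS. *Lgals3bp* rose to 54332 ± 2214 in dsHMGB1 and 85010.4 ± 2883 in LPS from 17141 ± 2007 in PBS. *Tgfbi* was highest in dsHMGB1 (7505 ± 258), with 2698 ± 319 in LPS and 2652 ± 289 in PBS. The collagens *Col1a1*, *Col1a2* and *Col3a1* of this list are also fibroblast markers. They are part of the fibroblast sum given for the libraries, so that sum is no separate measure of them.

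**Figure D5:**
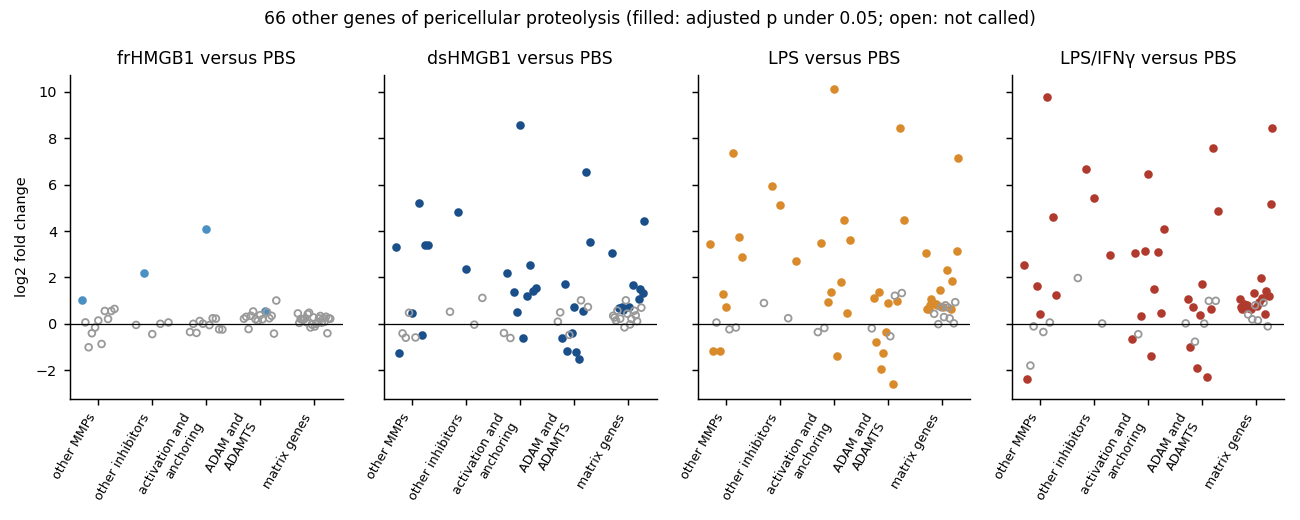
DESeq2 log2 fold change against PBS of the 66 tested genes of 5 lists (x axis) in the 4 stimulations, filled where edgeR's adjusted p was under 0.05 and open otherwise. The number of filled genes is 4 for frHMGB1, 38 for dsHMGB1, 46 for LPS and 48 for LPS/IFNγ.

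The patterns of the 9 genes over the 15 libraries were compared by Pearson's r on log2(normalized count + 1) between genes that share their libraries, conditions and depth. *Mmp13* and *Timp2* had r = -0.980, *Mmp13* and *Timp1* 0.945, *Timp1* and *Timp2* -0.893, and *Mmp13* and *Mmp14* 0.886. *Mmp9*, chosen for being highest in dsHMGB1, which bears on these values, had its highest r at 0.752 (*Mmp14*) and values of 0.475 with *Mmp13* and 0.318 with *Timp1*. *Mmp8* and *Mmp19* had r = 0.847, the highest positive value of either. All these values include PBS replicate 3, which stood apart for *Timp1*, *Timp3* and *Mmp19*, and r without it is not given.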

How the data were processed

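RNA of 15 libraries was sequenced. The authors used a stranded mRNA kit, paired-end sequencing on a NextSeq 2000, CASAVA, STAR and GRCm38, and took genes with a DESeq2 log2 fold change beyond 2 in either direction, leaving p-values aside because the replicates were technical. Deposited were raw counts for 51763 Ensembl identifiers, of which 51661 matched GENCODE M21. Which program counted the reads, with which strand setting and annotation, is not given in the sources used here. Replicates of every condition differed by more than sampling noise (chi-square per degree of freedom 4.17 to 787).

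After filterByExpr (minimum count 10, total 15) 16919 genes entered edgeR 4.0.16 (R 4.3.3) with TMM scaling, all libraries in 1 fit without covariates, and Benjamini-Hochberg adjustment over all genes. Size factors, unshrunken log2 fold changes, their SEs and 95% Wald intervals came from DESeq2 1.42.0. The code was tested on simulated counts with known changes. The members, gene lists and tests were chosen with earlier results of these data known. Named are all members and listed genes past the filter, first the up to 4 per list with the largest called changes in dsHMGB1 or LPS/IFNγ against PBS where the mean reached 100 normalized counts. A listed gene that met this rule is not reported here. Genes of like pattern were protein-coding and met the same minimum. Alternatives were DESeq2's Wald test, RLE scaling, no filter, at least 1 CPM in 3 libraries, the compared conditions alone, protein-coding genes alone, a block for the replicate number, and the omission of each library. The length of the longest transcript for the enzyme to inhibitor ratio and edgeR's own fold change were added after seeing the data. Depth ran from 40934540 to 80925478 counts per library, with 0 columns left without a sample.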

Additional observations from a re-analysis of the deposited data

How the results depend on the processing

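Of the log2 fold changes of the members, 1584 values under the alternatives kept their direction and side of the threshold, 26 gained a call, 43 lost one, 2 of *Mmp9* moved with protein-coding genes alone (1.23 in dsHMGB1 versus LPS and -0.08 in LPS/IFNγ versus LPS) and 1 reversed, *Timp1* in frHMGB1 versus PBS without PBS replicate 3 (0.68, range -0.38 to 0.68 over omitted libraries, DESeq2). The order of the conditions was the same on TMM-scaled CPM for all 9 members.

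Only the counts that moved most are given. With the compared conditions fitted alone, members called higher and lower were 2 and 1 in dsHMGB1 versus PBS and 6 and 2 in LPS/IFNγ versus LPS, and 1 was called lower in LPS and in LPS/IFNγ versus PBS. Over all genes the same fits called 2493 higher and 2254 lower of 15883 in dsHMGB1 versus PBS, and 31% and 30.1% in LPS/IFNγ versus LPS. Called lower were 3685 of 15049 in LPS and 3555 of 15863 in LPS/IFNγ versus PBS. Without the filter 0 members were higher in dsHMGB1 than in LPS, beside 2295 of 29051 genes. With protein-coding genes alone 1 was higher in LPS/IFNγ than in LPS, beside 1861 of 13025. The other listed genes called higher in frHMGB1 versus PBS numbered 0 with these conditions alone and 1 with protein-coding genes, and 1 was called lower with DESeq2, RLE, no filter or the CPM filter. Those called lower against PBS were 4 in dsHMGB1 and 5 in LPS without the filter, and 1 and 3 with the compared conditions alone, where LPS/IFNγ versus LPS gave 18 higher and 23 lower. Without the filter 3312 and 5552 of all 29051 genes were lower in dsHMGB1 and LPS against PBS. For all genes in frHMGB1 versus PBS the 222 higher and 963 lower became 502 and 1258 with DESeq2, 96 and 1028 without the filter, 169 and 547 with the CPM filter, and 7 and 182 with the compared conditions alone. The causes were not tested.

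Leaving out each library in turn gave ranges, and only those of the counts that moved most are listed. Not listed are smaller moves, such as the lost calls of *Timp1* in dsHMGB1 versus LPS, *Timp3* in dsHMGB1 versus frHMGB1 and *Mmp8* in LPS versus PBS. For members the listed ranges were 0 to 2 higher and 0 to 1 lower in frHMGB1 versus PBS, 1 to 3 lower in dsHMGB1 versus frHMGB1, 0 to 1 higher in dsHMGB1 versus LPS, 1 to 2 higher and 2 to 4 lower in dsHMGB1 versus LPS/IFNγ, and 0 to 4 higher in LPS/IFNγ versus LPS. For the other listed genes they were 2 to 8 higher and 0 to 5 lower in frHMGB1 versus PBS, 5 to 10 lower in dsHMGB1 versus PBS, 5 to 10 lower in LPS versus PBS, 5 to 10 lower in LPS/IFNγ versus PBS, 5 to 11 lower in dsHMGB1 versus frHMGB1, 4 to 10 higher and 14 to 30 lower in dsHMGB1 versus LPS, and 5 to 15 higher and 9 to 21 lower in LPS/IFNγ versus LPS. The highest count in each range of the other listed genes, and the members' 2 and 1 in frHMGB1 versus PBS, 2 in dsHMGB1 versus LPS/IFNγ and 4 in LPS/IFNγ versus LPS, came without PBS replicate 3. The shares of all genes in that fit are given with each comparison above. The members' lowest counts came without frHMGB1 replicate 1 or dsHMGB1 replicate 1 or 2 (1 in dsHMGB1 versus frHMGB1), LPS replicate 1 or 2 (0 in dsHMGB1 versus LPS) and dsHMGB1 replicate 2 (2 in dsHMGB1 versus LPS/IFNγ). Of all genes, 3301, 3328 and 3285 were then lower in dsHMGB1 versus frHMGB1 (3905 with all libraries). In dsHMGB1 versus LPS 2015 and 1945 were higher (2670), and in dsHMGB1 versus LPS/IFNγ 2447 were lower (2824).

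Replicate numbers did not pair the libraries: 1 of 30 pairs with the same number had deviations correlated above 0.1 (range -0.34 to 0.34), and 6 of 15 libraries correlated best with their own number. With a replicate block 103 results kept their side of the threshold and 1 did not, *Timp3* in dsHMGB1 versus frHMGB1 (1.18, edgeR adjusted p = 0.0524, over all alternatives 9.82e-07 to 0.115), which left 3 members higher there. Depth limited genes at or near 0 counts, and differences between animals could not be assessed.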
